A study of Homo sapiens with 12 samples.

Results

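Clusters in coding sequence (CDS), the part of a messenger RNA that ribosomes translate, were taken from 12 PAR-CLIP libraries of the human hepatoma line HepG2. A cluster was counted as CDS when its midpoint, on its own strand, lay in the CDS of any protein-coding transcript of GENCODE release 44 on chromosomes 1-22, X or Y. By this rule 10725 of 96139 clusters on these chromosomes were CDS clusters, or 11.2%, out of 102250 clusters in all. They lay in 2546 genes, 12.9% of the 19688 genes with a canonical coding transcript, and 10360 of them (96.6%) could be placed on that transcript. A further limit of the rule was that 566 CDS clusters (5.28%) also lay in a 3′ untranslated region (UTR) of another transcript, and that 123 lay in the CDS of more than 1 gene.

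PAR-CLIP feeds cells the nucleoside 4-thiouridine (4SU), crosslinks bound protein to it with long-wave ultraviolet light, trims the RNA with RNase T1 and recovers one protein with an antibody. All 12 libraries came from the same line grown with 4SU for 14 h and irradiated at 365 nm, and the labels name no knockdown or other agent in any group, only the protein recovered. There were 2 libraries each for IGF2BP1, IGF2BP2, METTL1 and WDR4, and 4 for IGF2BP3, of which 2 carry the label bio2, whose meaning the sources used here do not give. Per the methods, separate plates of cells were seeded for each replicate, but the labels do not say whether replicates were grown on different days, so the p-values below measure the spread between these libraries, which may in part be technical. No input or mock library was analysed here, so a gene's RNA abundance could not be set against its clusters, and 1 cell line gives no measure of other liver cells.

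IGF2BP1, IGF2BP2 and IGF2BP3 are a family of cytoplasmic RNA-binding proteins that carry RNA recognition motifs and KH domains, are high in fetal tissue and many tumours, and bind mainly 3′UTRs. METTL1 is the methyltransferase that, with its partner WDR4, places N7-methylguanosine (m7G) on transfer RNAs and inside other RNAs, and IGF2BPs are studied here as proteins that bind RNA carrying that mark. Binding within the CDS differs from 3′UTR binding in that translating ribosomes pass over the site, and a coding-region determinant is the best known mode by which IGF2BP1 meets MYC mRNA.

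CDS clusters numbered 1581 and 1865 in the IGF2BP1 libraries, 340 and 596 for IGF2BP2, 872 and 880 for IGF2BP3, 1355 and 1193 for IGF2BP3 bio2, 487 and 675 for METTL1, and 543 and 338 for WDR4. The files list called clusters without read counts, so the depth behind each cluster is unknown and nothing can be said of binding below the caller's threshold. With each protein as 1 unit, 3 IGF2BPs against METTL1 and WDR4 cannot give a permutation p below 0.1, so the tests below treat libraries, not proteins, as replicates. Median widths were between 31 and 36 nt, and over all libraries the width ran from 9 to 163 nt. Of 10 hepatocyte or hepatoma genes checked, APOB, SERPINA1 and FGB had clusters in mRNA exons in all 12 libraries, GPC3 in 11, ALB in 10, AFP and TF in 5, APOA1 and APOA2 in 1, and TTR in none.

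A small number of sites was found in every library. Overlapping CDS clusters of all libraries merged into 4218 sites, of which 20 held a cluster in all 12 libraries and 49.6% in 1 library alone. From 4 of these 20, in 4 genes, the cluster of median width is printed 5′ to 3′ as the hg38 reference reads on the RNA's strand, with the letters CATA, CATC or CATT in capitals. This 4-base string was searched because it resembles the CAU-containing sites known for the family.

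APOB: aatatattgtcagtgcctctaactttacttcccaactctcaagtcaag
OXA1L: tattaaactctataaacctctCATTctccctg
PHLDA1: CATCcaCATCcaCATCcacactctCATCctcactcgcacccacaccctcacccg
KDELR1: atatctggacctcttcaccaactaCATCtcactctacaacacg

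The APOB cluster, in the structural protein of low-density lipoprotein, lies at chr2:21002104-21002151 on the minus strand, in exon 29 of 29 at 0.971 of the CDS. That of OXA1L, an insertase of the inner mitochondrial membrane, lies at chr14:22770239-22770270 on the plus strand in exon 5 of 10. The PHLDA1 cluster (pleckstrin homology-like domain family), at chr12:76030632-76030685 on the minus strand in exon 1 of 2, holds the string 4 times within 54 nt. KDELR1, a receptor that returns escaped proteins to the endoplasmic reticulum, has its cluster at chr19:48390433-48390475 on the minus strand in exon 2 of 5. The string stood in 3 of these 4 and was absent from the APOB cluster. Guanine made up 3.13% to 10.4% of their bases, below every METTL1 and WDR4 mean over CDS clusters given below, so they are not typical of those libraries.

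Sites that one class of protein held alone were printed to show the contrast in bases described below, and were chosen after their values were seen. Of 4218 sites, 20 had a cluster in all 8 IGF2BP libraries and none in METTL1 or WDR4, and 3 of these are shown. Sites in at least 3 of the 4 METTL1 and WDR4 libraries and in no IGF2BP library numbered 4, of which 2 met the same conditions of a single-copy centre and of the chromosomes printed.

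FN1, IGF2BP alone: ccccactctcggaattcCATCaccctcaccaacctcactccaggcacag
MGA, IGF2BP alone: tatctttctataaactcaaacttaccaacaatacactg
RPRD2, IGF2BP alone: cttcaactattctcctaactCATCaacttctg
LMAN2, METTL1 and WDR4 alone: atttggcgttggggctggggccgg
SEMA4C, METTL1 and WDR4 alone: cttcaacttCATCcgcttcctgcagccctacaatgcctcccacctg

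The FN1 cluster (fibronectin, chr2:215386761-215386809, minus strand, exon 28 of 46) holds 5 guanines, while those of MGA (a partner of MAX, chr15:41669415-41669452, plus strand, exon 2 of 24) and RPRD2 (chr1:150470715-150470746, plus strand, exon 11 of 11) hold 1 each. The LMAN2 cluster (a lectin that carries glycoproteins out of the endoplasmic reticulum, chr5:177351606-177351629, minus strand) lies in exon 1 of 8 at 0.0281 of the CDS, and 54.2% of its bases are guanine. That of SEMA4C (a membrane semaphorin, chr2:96865711-96865756, minus strand, exon 5 of 15) holds 10.9% guanine. A count of 2 sites is too small to describe the class, and the base content over all CDS clusters is given below.

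The share of clusters that fell in CDS was higher on average in the IGF2BP libraries than in METTL1 and WDR4, but the difference missed the threshold of an adjusted p of 0.05. In the IGF2BP libraries it ran from 8.18% to 22.6% with a median of 13.02%, and it was 8.02% and 8.38% in METTL1 and 5.90% and 3.91% in WDR4. The bio2 libraries of IGF2BP3 stood highest at 22.6% and 21.5%, the other IGF2BP3 libraries reached 14.2% and 13.7%, and IGF2BP2 (8.18% and 8.56%) overlapped METTL1. The 95% Wilson interval for counting error ran from 7.38% to 9.05% in the library with the fewest clusters, IGF2BP2 replicate 1, and from 21.5% to 23.7% in bio2 replicate 1. The means of 14.1 ± 5.38% (SD, n = 8) and 6.55 ± 2.07% (SD, n = 4) differed by 7.51 percentage points with an exact permutation p of 0.0263, and an adjusted p of 0.0525 over 20 measures. Leaving bio2 out reduced it to 4.85 points. Counted among mRNA exon clusters alone, the CDS share was 23.8 ± 8.03% (n = 8) against 21.6 ± 4.13% (n = 4), a difference of 2.17 points (exact permutation p = 0.636). Its sign turned to -1.79 points without the bio2 libraries. Introns and intergenic sequence made up most clusters in METTL1 and WDR4, so the 2 denominators gave different pictures.

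**Figure D1:**
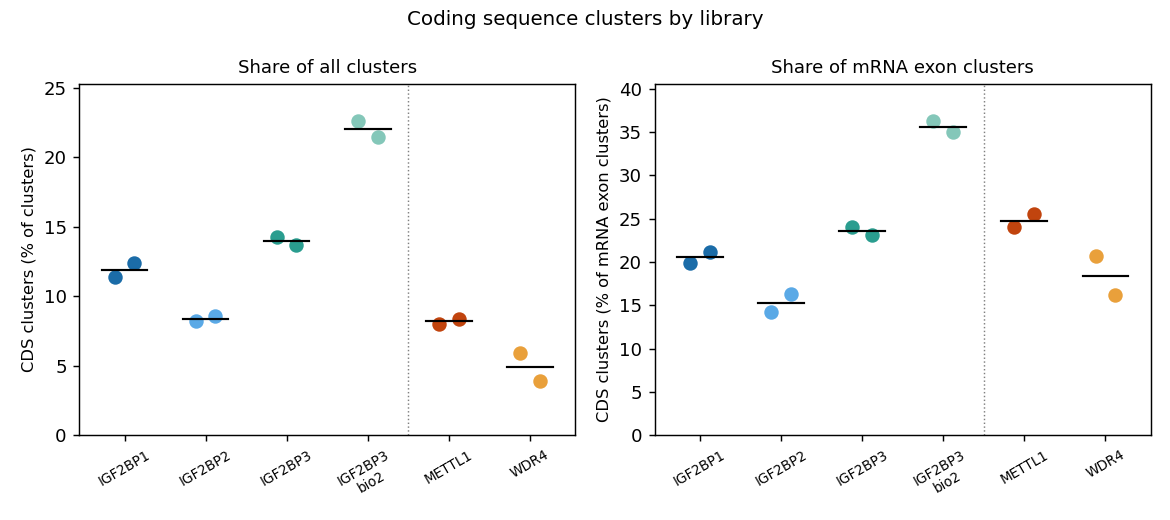
CDS clusters as a percentage of all clusters on the main chromosomes (left) and of clusters in mRNA exons (right), for 12 libraries; each point is 1 library and each bar the mean of its 2 libraries. The IGF2BP3 bio2 libraries stand highest in both panels, at 22.6% and 21.5% on the left, while METTL1 and WDR4 are lowest only on the left.

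The genes with CDS clusters were described through reproducible sites, in which at least 2 libraries of the protein held an overlapping cluster. In IGF2BP1, 1258 such CDS sites lay in 898 genes and in IGF2BP3, with 4 libraries, 1261 in 967 genes. With 2 libraries, as for the other proteins, IGF2BP3 had 685 sites in 550 genes without bio2 and 865 in 704 in bio2 alone. Counts were lower for IGF2BP2, with 232 sites in 196 genes, for METTL1, with 139 in 120, and for WDR4, with 111 in 99. For all 5 proteins together 1272 genes had one, and 42 genes had one for each protein. Genes with a reproducible CDS site and no reproducible 3′UTR site of the same protein were also counted, where 22.2% of all genes had a 3′UTR cluster of any protein: IGF2BP1 had 559 of this kind (62.3%), IGF2BP2 156 (79.6%), IGF2BP3 704 (72.8%), METTL1 107 (89.2%) and WDR4 87 (87.9%). Reproducible 3′UTR sites numbered 4887, 1466, 3052, 542 and 695 in that order, and the share was higher where they were fewer. The 22.2% is not a matched share, since it counts any cluster of any protein. A matched share over all genes was not computed, so these values do not show binding particular to CDS.

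APOB led for every protein. This gene (chr2:21001429-21044073, minus strand) held 293 CDS clusters, with 41 and 48 in IGF2BP1, 13 and 19 in IGF2BP2, 23 and 21 in IGF2BP3, 44 and 42 in IGF2BP3 bio2, 7 and 12 in METTL1, and 15 and 8 in WDR4. As a share of CDS clusters that was 1.44% to 3.82% per library, lowest in the METTL1 libraries. Its CDS is long, at 13689 nt, and GC-poor, at 43.3%. Exon 26 of 29 alone spans 7572 nt, 55.3% of the CDS, and held 210 of the 293 clusters (71.7%), with 53.9% to 80.5% of them by library. All libraries but 1, IGF2BP2 replicate 1, placed more than the length share of their APOB clusters in that exon.

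Among chromatin and nuclear proteins, QSER1 had 10 reproducible sites for IGF2BP1 and 6 for IGF2BP3, and none for METTL1 or WDR4. Its clusters numbered 2 to 11 in each IGF2BP library, and 0, 1, 1 and 0 in the METTL1 and WDR4 libraries. SRCAP, the ATPase of a remodelling complex that deposits histone H2A.Z, showed the same division, with 3 to 9 clusters per IGF2BP library and 1, 1, 0 and 0 in the others. Scaled to the CDS clusters of each library, neither gene passed (exact permutation, adjusted p = 0.246 for QSER1 and 0.177 for SRCAP). KMT2D, a histone H3 lysine methyltransferase, was spread more evenly, with 1 to 8 clusters in the IGF2BP libraries and 5, 2, 2 and 1 in METTL1 and WDR4. POLR2A, the largest subunit of RNA polymerase II, had 34 clusters in 12 libraries with a median position of 0.929, near the end of the CDS, where the C-terminal repeat domain is encoded. In ERF, an ETS-family repressor, all 27 clusters lay in the last of 4 exons, which holds 77.3% of its CDS.

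The remaining genes that led for the IGF2BPs were FN1, FASN, EEF2 and ALMS1. FN1 had 15 and 10 clusters in the bio2 libraries, 3 to 9 in the other IGF2BP libraries, and 1, 4, 1 and 2 in METTL1 and WDR4. FASN, the fatty acid synthase, ran the other way within the family, with 9 and 14 clusters in IGF2BP1, 1 and 8 in IGF2BP2, 1, 1, 2 and 1 in the 4 IGF2BP3 libraries, and 7, 8, 3 and 0 in METTL1 and WDR4. Its CDS is GC-rich at 65.3%, and that of FN1 reaches 51.5%. EEF2, the elongation factor that moves the ribosome along the message, had 47 clusters in 12 libraries, with 2 to 6 in every library. ALMS1, a centrosomal protein with a CDS of 12504 nt, had 42 clusters, of which 1 came from METTL1 and none from WDR4. Scaled in the same way, ALMS1 did not pass either (exact permutation, adjusted p = 0.177).

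The genes that led for METTL1 or WDR4 ranged widely in GC, from 43.3% in APOB and 47.4% in PRDM2 through 56.3% in POLR2A and 60.8% in EEF2 to 68.4% in TNRC18. TNRC18, with 68.4% GC, had 3, 4, 4 and 5 clusters in these libraries and 0 to 4 in the IGF2BP libraries. HOXD1, a homeobox gene with 65.4% GC, had 2, 3, 4 and 3 against 1 to 5. FCGBP, which encodes an Fc-binding mucin-like protein, had 1, 1, 3 and 2 clusters and none in any IGF2BP library, but none of its clusters had a single-copy centre, and it is uncertain which of the gene's repeated stretches they came from. The same holds for PRDM2, a zinc finger protein, where 5.88% of 17 clusters were single-copy, and in part for TNRC18, where 60.0% were.

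Set gene by gene across the 1094 genes with clusters in at least 3 libraries, as clusters per 1000 CDS clusters, 0 genes (0%) passed an adjusted p of 0.05 in exact permutation tests between the 8 IGF2BP and the 4 METTL1 and WDR4 libraries. The smallest adjusted p was 0.138, and 210 genes had an unadjusted p under 0.05, 163 with more in IGF2BP and 47 with fewer. Of the 1094 genes, 18 had clusters in all 8 IGF2BP libraries and none in the other 4. BPTF, a subunit of a nucleosome remodeller, was one, with 5, 5, 1, 1, 4, 4, 4 and 3 clusters, and MED13, a Mediator subunit, with 4, 5, 1, 1, 2, 3, 3 and 2, another. The reverse held for 2 genes, FCGBP and PLXNB1, a semaphorin receptor with 1, 3, 2 and 1 clusters in METTL1 and WDR4. These genes were named after their values were seen. The METTL1 and WDR4 libraries held 338 to 675 CDS clusters and the IGF2BP libraries 340 to 1865. Absence is easier to reach in libraries with fewer clusters. How many genes would divide in this way from cluster numbers alone was not tested.

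Gene lists relevant to liver cells and to the proteins recovered were read against the 12.9% of all genes with a CDS cluster. Secreted plasma proteins had one in 15 of 25 members and lipid synthesis and lipoprotein uptake genes in 12 of 20. The plasma list was led by APOB and FN1 in 12 libraries, with ALB, FGG (fibrinogen gamma) and SERPINA1 (α1-antitrypsin) in 8. In the lipid list FASN and SCD, the stearoyl-CoA desaturase, had CDS clusters in 11 libraries, and SREBF2, the regulator of cholesterol synthesis, in 10. Chaperones had a CDS cluster in 14 of 24 members, with CCT2, a subunit of a cytosolic chaperonin, in 11 libraries, and translation factors in 14 of 29, with EIF4G2 in 11. The same lists were also high in 3′UTR clusters, against 22.2% of all genes. A 3′UTR cluster was found in 52% of plasma, 70% of lipid, 50% of chaperone and 48.3% of translation factor members. These counts are therefore not particular to CDS. Transcript abundance and CDS length were not held equal between lists and all genes, and their part in these counts was not tested.

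Of 5 further lists, which lay closer to that 12.9%, 3 were above it and 2 below. Cytosolic ribosomal proteins had a CDS cluster in 16 of 79 members (20.3%), with RPL10 in 12 libraries and RPL13 in 4. C2H2 zinc finger genes had one in 74 of 476 (15.6%), with ZNF91 in 12 libraries and ZNF254 in 10. Replication-dependent histones had one in 7 of 69 (10.1%), and matrix proteins in 7 of 64 (10.9%), where FN1 gave 70 of 87 clusters. Reads from near-identical histone, ribosomal protein or zinc finger copies can be placed on the wrong member. RNA modification genes had one in 4 of 16 (25%): WTAP, a subunit of the m6A methyltransferase, in 4 libraries, and WDR4, YTHDF1 and YTHDF3 in 1 each. A 3′UTR cluster was found in 56.3% of RNA modification, 29.1% of ribosomal protein and 30.9% of zinc finger genes. For histones and matrix proteins that share was 7.25% and 10.9%. Of 3 genes known for coding-region binding of IGF2BP1, MYC had 1 cluster in each of 4 libraries, IGF2BP2 replicate 2, both bio2 libraries and METTL1 replicate 1, and BTRC and ABCB1 had none. Neither IGF2BP1 library had a MYC cluster. The MYC clusters had a median position of 0.301, with 0% in the last exon, which holds 41.1% of its CDS. No MYC cluster was thus seen in that last part of the CDS, and none is described here as lying on the coding-region determinant.

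The first bin of the CDS held a smaller share of IGF2BP clusters than of METTL1 and WDR4 clusters. In the first 10% of the CDS lay 5.57% to 8.39% of placed clusters in the IGF2BP libraries, with a median of 6.69%, and 12.6%, 14.1%, 13.7% and 10.1% in METTL1 and WDR4. No IGF2BP library reached the lowest of the other 4. Bin 1 was the fullest of the 10 in METTL1 replicate 2 and WDR4 replicate 1, but METTL1 replicate 1 had more in bin 7 (13.7%) and WDR4 replicate 2 more in bins 2, 7, 9 and 10, up to 12.3%. The means of 6.75 ± 0.839% (SD, n = 8) and 12.6 ± 1.78% (SD, n = 4) differed by -5.87 points, with an exact permutation p of 0.00202, the smallest this design allows, and an adjusted p of 0.0202 over 10 equal bins of the CDS. Of the 10 bins 5 passed (50%). Bin 2 was also lower in IGF2BP, at 8.56 ± 0.403% against 9.99 ± 0.922%, and bins 4, 6 and 8 were higher, bin 4 at 10.9 ± 0.941% against 8.67 ± 1.34%. Without the bio2 libraries the difference in bin 1 was -5.69 points.

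**Figure D2:**
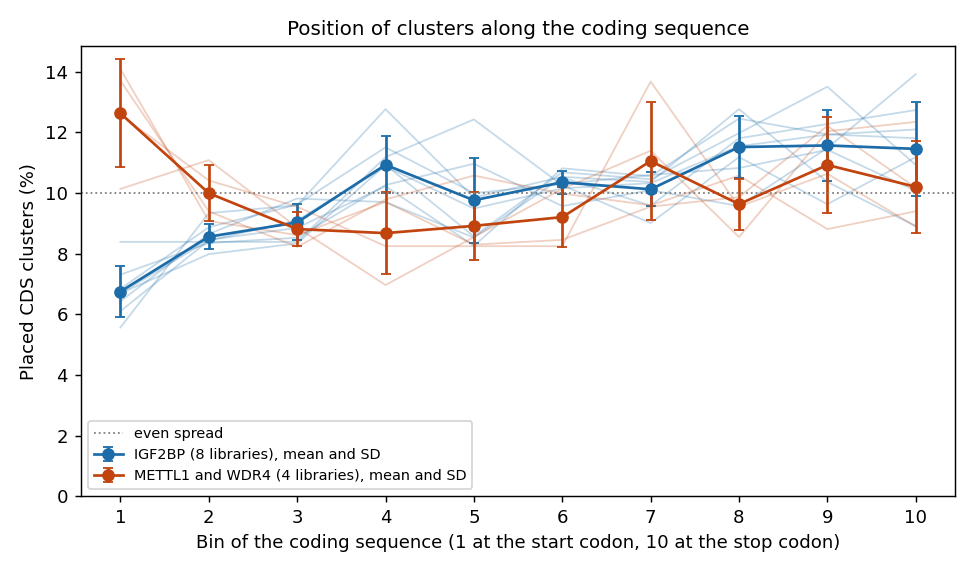
Percentage of placed CDS clusters in each of 10 equal bins of the coding sequence, from the start codon (bin 1) to the stop codon (bin 10); thin lines are libraries, points and bars the mean and SD of 8 IGF2BP libraries (blue) and 4 METTL1 and WDR4 libraries (red), and the dotted line an even spread. In bin 1 the groups are apart, at 6.75% and 12.6%, and in the later bins the means lie no further apart than the 2.25 points of bin 4.

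Over the whole CDS the shift was small. The median position, 0 at the start codon and 1 at the stop codon, was 0.512 to 0.578 in IGF2BP libraries and 0.515, 0.504, 0.492 and 0.548 in METTL1 and WDR4, a difference of 0.0347 (exact permutation p = 0.0465, adjusted p = 0.0845). Base content moved with position: clusters in bin 1 had 60.5% to 67.1% GC in METTL1 and WDR4 and 45.9% to 58.8% in IGF2BP, against 54.5% to 60.4% and 44.5% to 54.3% for the rest of the CDS. Bin 1 was the richer in GC in each library but IGF2BP3 replicate 2, at 45.9% against 47.2%. The part of base content in the difference at bin 1 was not tested.

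The last exon of the canonical transcript held more CDS clusters than its share of the CDS length, in every library. Where the CDS ends before that exon, as in PHLDA1 and PRDM2, both shares are 0%. Of placed clusters 22.3 ± 2.35% (n = 8) lay in the last exon in IGF2BP and 23.2 ± 1.46% (n = 4) in METTL1 and WDR4, which did not differ beyond the spread (exact permutation p = 0.523). Set against the share of the same genes' CDS that lies in the last exon, the excess was 3.36 ± 1.79 points (SD, n = 12), above 0 in 12 of 12 libraries, with an adjusted p of 0.000814 in an exact sign-flip permutation test over 5 such measures. It ranged from 0.773 points in a bio2 library to 5.84 in WDR4 replicate 2. To leave junctions aside, the expected share was also taken over CDS positions at least 20 nt from an exon edge: the excess was then 1.87 ± 1.77 points, above 0 in 11 of 12 libraries (exact sign-flip permutation, adjusted p = 0.00916), and was -0.689 in bio2 replicate 2. It was also close to 0 in bio2 replicate 1 (0.296), METTL1 (0.0368 and 0.193) and WDR4 replicate 1 (0.237), and WDR4 replicate 2 had 4.42.

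Long exons other than the last, first exons included, behaved in the same way. As above, all placed clusters were counted, and only the expected share was limited to inner positions. Outside the last exon, exons of at least 400 nt held 4.39 ± 1.88 points (n = 12) more clusters than their share of inner CDS positions, in 12 of 12 libraries (exact sign-flip permutation, adjusted p = 0.000814). The bio2 libraries were lowest here as well, with a mean of 1.01 points against 3.69 in IGF2BP1, 5.87 in IGF2BP2 and 4.81 in the other IGF2BP3 libraries. APOB, ALMS1 and QSER1 had 84.7%, 100% and 77.3% of their clusters outside the last exon in such exons, while EEF2, CTNNB1 and OXA1L had 0%. These shares are not set against the length of such exons in each gene. Few CDS clusters crossed an exon edge into intron or intergenic sequence, 0.609 ± 0.324% in IGF2BP and 0.857 ± 0.422% in METTL1 and WDR4.

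Base content separated the 2 classes of protein, through guanine and adenine. Guanine made up 4.98% to 14.3% of the bases of CDS clusters in the IGF2BP libraries, with a median of 8.03%, and 21.7%, 21.3%, 19.2% and 17.0% in METTL1 and WDR4. The IGF2BP3 libraries without the bio2 label were lowest, at 4.98% and 5.20%, and IGF2BP2 replicate 2 was the highest of the family, still below WDR4 replicate 2. The means of 8.53 ± 3.03% (n = 8) and 19.8 ± 2.16% (n = 4) differed by -11.3 points (exact permutation p = 0.00202, adjusted p = 0.00808). Adenine was higher in IGF2BP by 6.995 points, at 23.9 ± 2.43% against 16.9 ± 1.69% (exact permutation, adjusted p = 0.00808). Without the bio2 libraries the guanine difference was -10.9 points. Cytosine, at 40.3 ± 2.01% and 38.6 ± 1.15%, did not differ beyond the spread (exact permutation, adjusted p = 0.261).

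GC content differed in the same direction. It was 44.6% to 54.8% in the IGF2BP libraries, with a median of 48.1%, and 60.97%, 61.19%, 56.7% and 54.8% in METTL1 and WDR4, so that WDR4 replicate 2 (54.83%) stood just above IGF2BP2 replicate 2 (54.76%), and the groups did not overlap (exact permutation, adjusted p = 0.00808). The genes differed as well: the whole CDS of genes with clusters, weighted by cluster, averaged 51.1 ± 1.52% GC in IGF2BP and 56.3 ± 1.37% in METTL1 and WDR4, a difference of -5.13 points (exact permutation, adjusted p = 0.00808). Relative to that CDS, clusters lay at -2.33 ± 2.15 points in IGF2BP and 2.17 ± 1.80 points in METTL1 and WDR4 (exact permutation, adjusted p = 0.0202). Thymine, which stands for the uridine that 4SU replaces, was 27.3 ± 1.24% and 24.7 ± 1.54% (exact permutation, adjusted p = 0.0269), a difference that was 0.319 points among clusters at or above the median width. Base shares sum to a whole, so a lower guanine share in IGF2BP raises the shares of the other bases together. Thymine, cytosine and adenine are not given as shares of the non-guanine bases, so their differences are not independent of guanine.

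RNase T1 cuts after guanine, and the clusters carried that mark: the base before the first base of a CDS cluster was guanine in 87.9% to 97.7% of clusters by library, lowest in WDR4 replicate 2. The same digestion is described for all samples, and how complete it was in each library was not measured, so the share of guanine inside clusters that comes from digestion and that from the RNA bound cannot be told apart. Among clusters preceded by guanine alone, the differences in guanine, adenine and GC kept their direction and an unadjusted exact permutation p under 0.05. That subset keeps 87.9% to 97.7% of the clusters by library, so it cannot separate digestion inside clusters from the RNA bound.

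**Figure D3:**
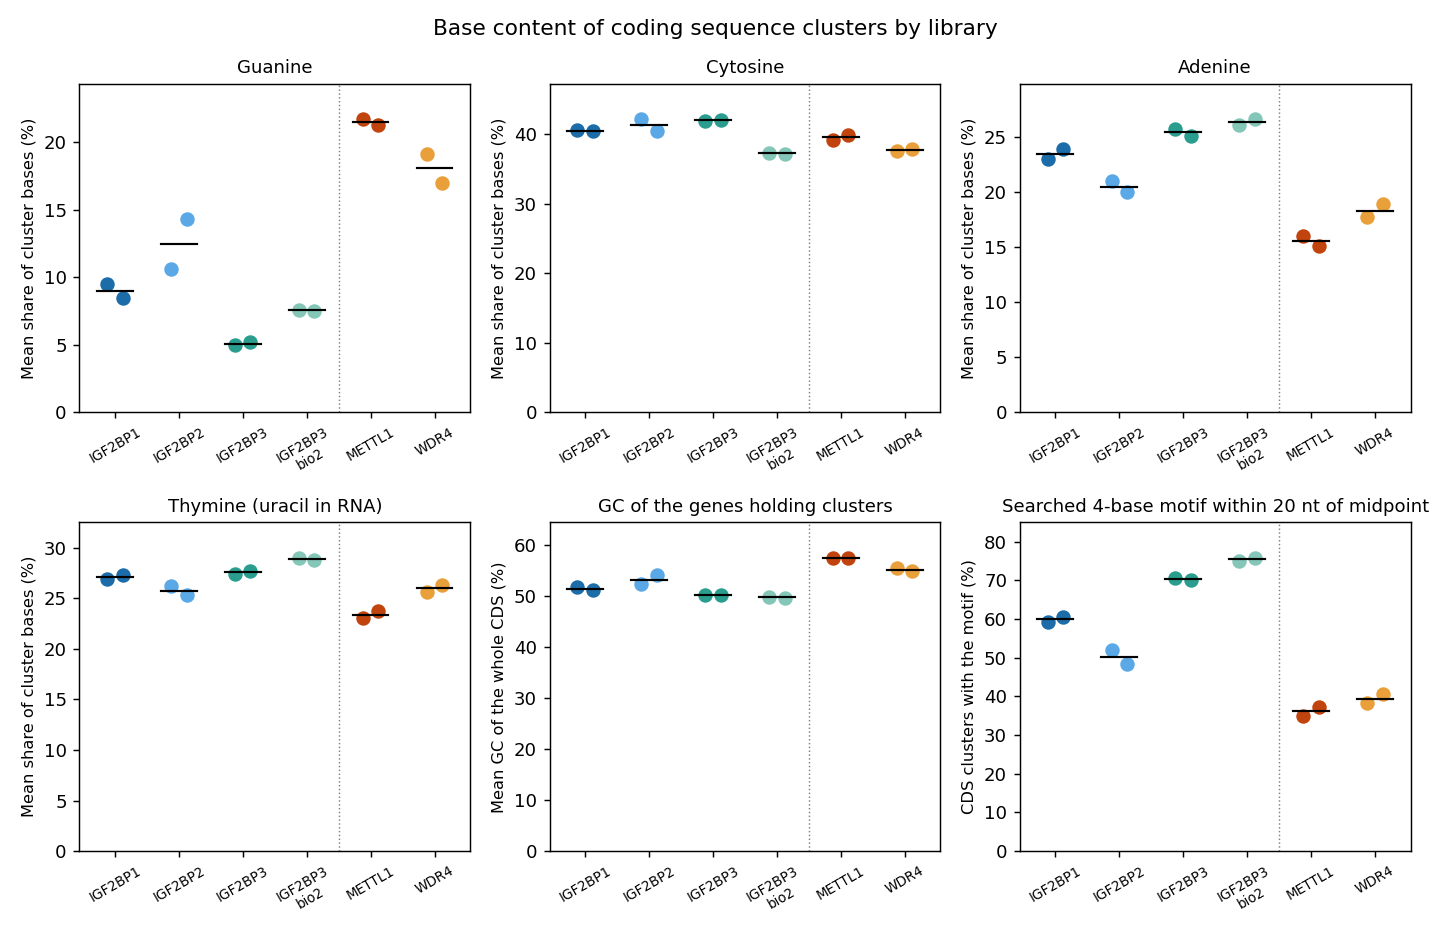
Mean share of each base in CDS clusters, mean GC of the whole CDS of the genes that hold them, and share of CDS clusters with the searched 4-base motif within 20 nt of the midpoint; each point is 1 of 12 libraries, each bar the mean of 2, all in percent from 0. Guanine and the motif separate the 8 IGF2BP libraries (left of the dotted line) from the 4 METTL1 and WDR4 libraries, while cytosine does not.

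The string CATA, CATC or CATT was counted on the RNA's strand in 41-nt windows centred on the cluster midpoint, which makes the length equal in all libraries. It stood in 48.5% to 75.9% of CDS windows in the IGF2BP libraries, with a median of 65.3%, and in 34.9%, 37.3%, 38.3% and 40.5% in METTL1 and WDR4. The bio2 libraries were highest, at 75.0% and 75.9%, and IGF2BP2 lowest within the family. The difference of 26.2 points had an adjusted p of 0.0115 in an exact permutation test. All windows of that length in the CDS of the same genes held it at 30.4% to 37.5%, so the excess was 28.2 ± 8.94 points in IGF2BP and 6.59 ± 1.57 in METTL1 and WDR4, above 0 in 12 of 12 libraries. The string holds no guanine, and guanine was scarcer in IGF2BP clusters than in METTL1 and WDR4 clusters. A preference for the string therefore cannot be told apart from digestion or from base content in general. A match to these letters is not by itself a bound site.

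In-frame codons inside clusters were set against the codons of the whole CDS of the same genes, as a log2 ratio per library. Of 61 sense codons 46 passed between IGF2BP and METTL1 and WDR4 (75.4%), 17 higher in IGF2BP and 29 lower. The split followed guanine: of 26 codons without it 17 were higher and 1, UCU, lower, and of 35 codons with guanine 0 were higher and 28 lower. The codons most depleted in IGF2BP clusters were AGA (arginine) at -4.19 ± 1.17, GAA (glutamate) at -3.74 ± 0.948 and AGU (serine) at -3.70 ± 0.649 on the log2 scale, against -2.89 ± 0.350, -2.85 ± 0.315 and -2.17 ± 0.330 in METTL1 and WDR4. Between the groups AGU passed, while AGA and GAA did not (exact permutation, adjusted p = 0.00685, 0.0789 and 0.105). Those most enriched were UCC (serine) at 1.81, CUC (leucine) at 1.53 and UCU (serine) at 1.52, against 2.07, 1.24 and 1.83 in METTL1 and WDR4. Of these CUC was higher in IGF2BP, UCU lower, and UCC did not pass (exact permutation, adjusted p = 0.132). All 17 codons above 0 in 12 of 12 libraries lacked guanine.

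**Figure D4:**
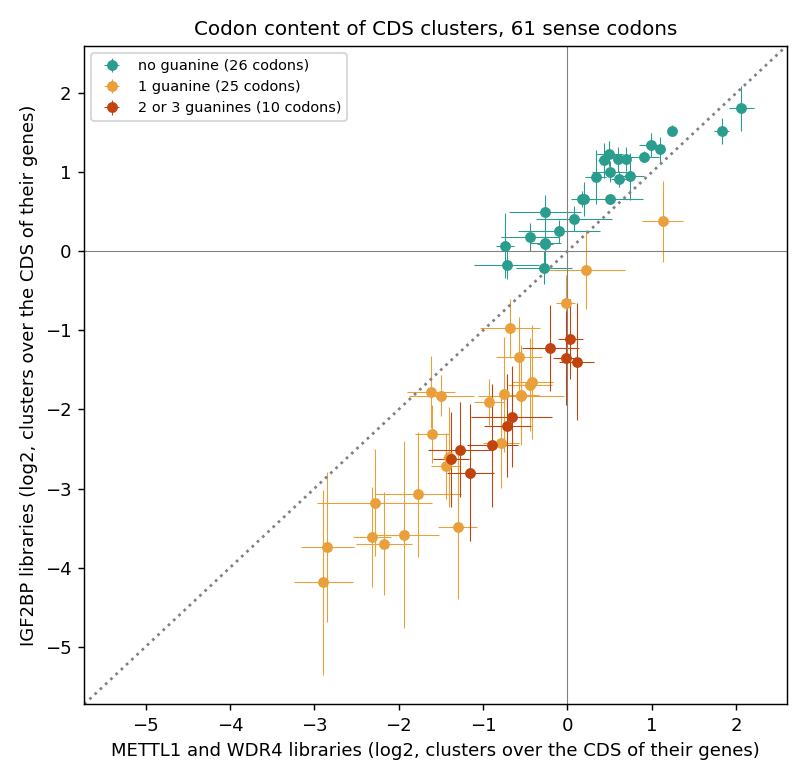
Log2 ratio of each of 61 sense codons inside CDS clusters over the whole CDS of the same genes, as the mean and SD of 4 METTL1 and WDR4 libraries (horizontal) and 8 IGF2BP libraries (vertical), coloured by the number of guanines in the codon; the dotted line marks equal values. Codons with guanine lie below the line and codons without it mostly above.

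When shares were taken among the 26 guanine-free codons alone, 10 passed (38.5%), 8 higher in IGF2BP and 2 lower. Both histidine codons were higher: CAC was at 0.30 ± 0.11 in IGF2BP and -0.21 ± 0.14 in METTL1 and WDR4, and CAU at 0.21 ± 0.18 and -0.27 ± 0.02 (exact permutation, adjusted p = 0.0075 for each). CCA (proline) differed by 0.33, AAC (asparagine) by 0.26 and ACC (threonine) by 0.24, each with the same adjusted p. The serine codons UCU and UCC were lower in IGF2BP, at 0.58 ± 0.20 against 1.13 ± 0.07 and 0.87 ± 0.29 against 1.36 ± 0.09, although they were enriched in both groups. Among clusters with a single-copy centre 0 of these codons passed, with a smallest adjusted p of 0.0525 in the same exact permutation test. There 11 had an unadjusted p under 0.05, and the 10 codons kept their sign.

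Replicates shared CDS clusters to different degrees. By overlap of at least 1 nt on the same strand, 73.4% of the CDS clusters of the IGF2BP1 pair lay on a cluster of the other replicate, and the IGF2BP2 pair gave 49.7%, IGF2BP3 78.3%, IGF2BP3 bio2 68.0%, METTL1 23.9% and WDR4 25.3%. For 3′UTR clusters of the same pairs the values were 76.4%, 60.0%, 78.2%, 71.5%, 36.3% and 40.1%. CDS clusters were thus shared less in 5 of 6 pairs, with a mean difference of -7.32 points and an exact sign-flip permutation p of 0.0625, where 6 pairs allow 0.03125 at best. Reproducible sites made up 57.7% of merged CDS sites for IGF2BP1, 33.0% for IGF2BP2, 13.6% for METTL1 and 14.4% for WDR4, so statements about reproducible METTL1 and WDR4 sites rest on the smaller part of their sites. The position, exon, base, string and codon measures used all CDS clusters of a library. For METTL1 and WDR4 they thus rest mostly on clusters not seen in the other replicate.

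**Figure D5:**
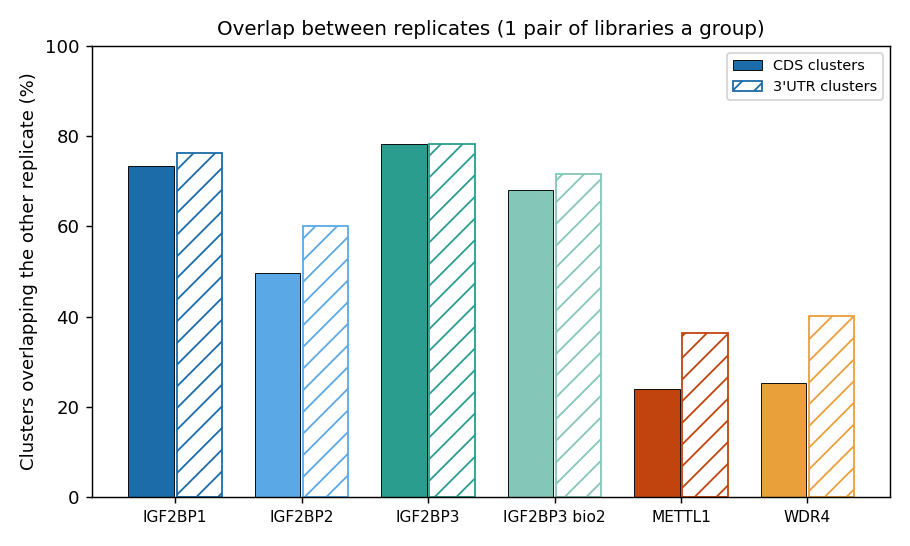
Percentage of clusters that overlap a cluster of the other replicate, for CDS clusters (filled) and 3′UTR clusters (hatched), in the 6 pairs of libraries of 1 group. METTL1 and WDR4 are lowest, at 23.9% and 25.3% for CDS clusters, and IGF2BP3 is the pair in which CDS clusters are not below 3′UTR clusters.

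Libraries of the same protein shared more CDS clusters than libraries of different proteins, 49.4% against 26.2%, a difference of 23.1 points with a one-sided exact permutation p of 0.000308 over all partitions of the libraries into proteins. The likeness did not follow protein alone. IGF2BP3 and IGF2BP3 bio2 libraries overlapped by 43.7%, less than the 60.1% between IGF2BP1 and IGF2BP3, and bio2 and METTL1 libraries by 8.55%. METTL1 and WDR4, partners in one complex, overlapped by 20.7%, less than METTL1 and WDR4 overlapped IGF2BP2 (28.8% and 28.7%) and near their overlap with IGF2BP3 (19.7% and 21.7%). Replicates of METTL1 overlapped each other by 23.9% and those of WDR4 by 25.3%, so the partners came close to the overlap within each protein.

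Most reproducible METTL1 and WDR4 sites in CDS lay on IGF2BP sites. Of 139 METTL1 sites, 71.9% overlapped an IGF2BP1 site, and of 111 WDR4 sites 83.8% did. From the other side they were 7.95% and 7.31% of the 1258 IGF2BP1 sites. Reproducible sites were 13.6% of merged METTL1 and 14.4% of merged WDR4 CDS sites, and the overlap of all their sites is not given. Over all CDS clusters, METTL1 and IGF2BP1 libraries overlapped by 20.1%, and WDR4 and IGF2BP1 libraries by 18.2%. That measure counts the clusters of both libraries, so it is not directly comparable. METTL1 and WDR4 shared 55 sites with each other, 39.6% of the one and 49.5% of the other. Within the family, 92.7% of IGF2BP2 sites lay on IGF2BP1 sites (17.1% of the latter), and IGF2BP1 and IGF2BP3 overlapped at 60.3% and 60.1%.

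Set against 3′UTR clusters of the same library, CDS clusters were narrower, richer in GC and more often in single-copy sequence. Their median width was 32.9 nt against 38.5 nt as a mean over libraries, lower in 12 of 12. GC was 52.0 ± 5.79% against 46.2 ± 4.79%, higher in 12 of 12, and thymine was lower in 12 of 12, with a difference of -4.55 points. A centre of 20 nt that occurs once in hg38 was found in 84.5 ± 2.43% of CDS clusters and 68.2 ± 9.11% of 3′UTR clusters. All 4 differences had an adjusted p of 0.00061 in exact sign-flip permutation tests over 12 libraries. The searched string was 4.45 points more frequent in CDS windows (higher in 11 of 12), but -0.959 points among clusters with a single-copy centre.

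Within the IGF2BP family, the 4 IGF2BP3 libraries were compared with the 4 of IGF2BP1 and IGF2BP2. IGF2BP3 had the higher CDS share, by 7.86 points, the higher share of windows with the searched string, by 17.7 points, and less guanine, by -4.41 points, each with an exact permutation p of 0.0286, the smallest that 70 splits allow. Over the 20 measures none passed after adjustment (exact permutation, adjusted p = 0.0571 at the lowest). The order of means for the string was bio2 at 75.4%, the other IGF2BP3 libraries at 70.3%, IGF2BP1 at 60.0% and IGF2BP2 at 50.3%. Without the bio2 libraries the CDS share differed by 3.82 points (exact permutation p = 0.133) and the string by 15.1 points (exact permutation p = 0.0667, the smallest possible there). Guanine went the other way between the IGF2BP3 labels, at 5.09% without bio2 and 7.55% with it.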

How the data were processed

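PAR-CLIP clusters of 12 HepG2 libraries were used. The authors quality-filtered, clipped and collapsed the reads, kept those longer than 15 nt, mapped them with Bowtie (up to 3 mismatches and 10 positions) and called clusters with PARalyzer; the build in the submitters' processing notes is hg38, and tool versions and PARalyzer settings are not given in the sources used here. The deposited values are cluster coordinates (other data, no read counts), with 1-based starts, called per library. All 102250 clusters fit hg38. No 2 libraries held identical clusters.

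Clusters were classed by midpoint and strand with GENCODE release 44, and positions, exons, codons (pseudocount 0.5) and bases were read from the Ensembl canonical transcript and hg38. IGF2BP libraries (8) were compared with METTL1 and WDR4 (4) by two-sided exact permutation, with Benjamini-Hochberg adjustment over 20 measures, 10 of them added after seeing the data, over 61 codons or over 10 position bins. Within-library contrasts used exact sign-flip tests. The threshold was an adjusted p of 0.05. The codon test was tested on simulated data.

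Named genes were, for each protein, the 5 with the most reproducible CDS sites, ties by symbol, plus the members of 10 gene lists in the most libraries. Shown sites were those in the most libraries with a single-copy centre, 1 per gene, not on chromosome 8. Some items chosen by these rules are not reported here. Members, lists and tests were chosen with earlier results of these data known. Alternatives were leaving out each library or bio2, each protein as the unit, a replicate block, 1 weight per gene, wide clusters, clusters with a single-copy centre (20 nt), clusters preceded by guanine and leaving out APOB. Replicate numbers were not taken as pairs: correlations of same-numbered libraries' deviations were between -0.0355 and 0.0212 over 15 group pairs. Analyses used Python 3.11.15, numpy 2.4.6, pandas 2.3.3, scipy 1.17.1, numba 0.67.0, Biopython 1.88 and matplotlib 3.10.9.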

Additional observations from a re-analysis of the deposited data

Results flagged for a closer look

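Of the 60 groups of libraries checked for a value far from the rest, 3 had one, where chance gives about 1 in 20. WDR4 replicate 2 had a last exon excess of 5.84 points over CDS length and of 4.42 points over inner CDS positions, while the other METTL1 and WDR4 libraries had at most 1.72 points over CDS length. This library also had the fewest CDS clusters of the group, 338. METTL1 replicate 2 had 1.48% of CDS clusters reaching outside an exon, against at most 0.737% in the other 3.

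The contrast between CDS and 3′UTR clusters differed between IGF2BP and METTL1 and WDR4 libraries in 3 of 5 measures, by exact permutation tests of the difference itself. CDS clusters were narrower than 3′UTR clusters by less in IGF2BP, with differences of -4.25 ± 1.83 nt (n = 8) and -8.25 ± 1.26 nt (n = 4), 4 nt apart (exact permutation, adjusted p = 0.00505). Their GC stood 4.91 ± 0.967 points above 3′UTR clusters in IGF2BP and 7.73 ± 1.36 in METTL1 and WDR4, a difference of -2.82 points (exact permutation, adjusted p = 0.00505). The excess of single-copy centres was 12.3 ± 8.22 and 24.4 ± 2.16 points, a difference of -12.1 points (exact permutation, adjusted p = 0.0303). The bio2 libraries had the smallest excess of the family, 1.62 and 2.39 points, and the cause was not tested.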

How the results depend on the processing

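Here single measures are read at an unadjusted p of 0.05, at which the CDS share and the median position pass although neither does after adjustment. Of 712 values under alternatives, 609 kept their direction and side of that threshold, 76 fell short of it, 8 newly passed it and 19 changed sign, most of them differences that had not passed. With each protein as 1 unit no test can pass, and the differences were 6.199 points for the CDS share, 0.0339 for the median position, -8.67 for GC, 2.32 for thymine and 23.3 for the CAT string. The CDS share was 6.05 points in wide clusters (p = 0.0788, exact permutation) and 6.58 in single-copy ones (p = 0.0626, exact permutation). The share among mRNA exon clusters turned to -1.79 without bio2 and -0.641 in single-copy clusters. The median position was 0.0196 in wide clusters, 0.0308 in clusters preceded by guanine and 0.0326 without APOB. Thymine was 0.319 in wide clusters, where the last exon share turned to 1.28, its excess rose to 3.24 and the single-copy share turned to 3.57. Cytosine turned to -3.09 there. Without bio2 the last exon share turned to 0.236 and the long exon share to 1.32. The CDS to 3′UTR contrast in the CAT string turned to -0.959, and replicate overlap gave -7.24 points (exact sign-flip p = 0.03125), in single-copy clusters.

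Within the IGF2BP family, leaving out bio2 gave 3.82 points for the CDS share, 5.71 among mRNA exon clusters, -4.58 for GC, 1.15 for thymine and 15.1 for the string. It turned the last exon excess to 0.905, over inner positions to 0.854, cytosine to 1.06 and the long exon excess to 0.0285. In single-copy clusters the CDS share differed by 6.22.

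Leaving out each library gave 6.29 to 8.35 points for the CDS share, with p above 0.05 in 2 of 12 (up to 0.0606, without WDR4 replicate 2), and 0.0271 to 0.0459 for the median position, with p above 0.05 in 10 of 12 (up to 0.139, without WDR4 replicate 1; exact permutation). The family ranges were 6.32 to 9.30 for the CDS share, 9.51 to 13.9 among mRNA exon clusters, -6.64 to -4.69 for GC, 1.44 to 2.10 for thymine, -3.47 to -1.38 for the last exon share, -0.00627 to 0.0146 for position and -1.81 to 0.588 for the single-copy share. The number of codons passing stayed between 41 and 49. With the replicate block, 20 of 21 results stayed on their side of the unadjusted threshold, and the median position (0.0347) did not (p = 0.0578, exact permutation).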
